A study of Homo sapiens with 11 samples.

Results

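Expression of 10 genes that encode histone acetyltransferases and subunits of their complexes was followed in cancer cells given a mimic of miR-365a-3p or a control miRNA. With earlier results of these data known, the genes were taken by name from the 31325 gene symbols of the deposited table. They are the coactivators EP300 and CREBBP, the SAGA and ATAC genes KAT2A, KAT2B and TADA2A, the TIP60 complex genes KAT5, EP400, TRRAP and ING3, and MYST3, whose current symbol is KAT6A. All 10 had a mean over all arrays above the median of the gene means. RNA was measured on 11 one-colour Illumina BeadChips in 4 groups, which were MDA-MB-231 with control miRNA (3 arrays), MDA-MB-231 with miR-365a-3p (3 arrays), SKOV3 with control miRNA (2 arrays) and SKOV3 with miR-365a-3p (3 arrays). MDA-MB-231 is a basal-like breast cancer line. SKOV3 is an ovarian cancer line, and where the labels say SKOV3 the paper writes SKOV3.ip1, a line derived from it. The labels place the arrays at 48 h of treatment, while the description of the series gives 24 h. The number of arrays limits the precision, and as no source says that replicates were separate cultures, the p-values measure only the spread between these arrays.

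Histone acetyltransferases transfer acetyl groups from acetyl-CoA to lysines on histone tails, which loosens chromatin and creates docking sites for bromodomain proteins. Most of them work inside large complexes, in which a catalytic subunit acetylates, scaffold subunits contact transcription factors and reader subunits bind modified histones. A miRNA such as miR-365a-3p guides argonaute to mRNAs that pair with its seed, which lowers their stability or translation. The comparison addresses which mRNAs change when this miRNA is raised.

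The sequences of the miRNA are shown because they define the treatment. They are from RefSeq on GRCh38.p14, and the same mature sequence is given for miR-365 in the mimic library of the study. The mature arm lies at chr16:14309340-14309361 on the plus strand, and in its line the seed, bases 2 to 8, is in capitals. An identical mature arm, miR-365b-3p, lies at chr17:31575478-31575499 on the plus strand. The hairpin lines are MIR365A at chr16:14309285-14309371 and MIR365B at chr17:31575411-31575521, with the shared mature arm in capitals.
hsa-miR-365a-3p: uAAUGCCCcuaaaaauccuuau
MIR365A hairpin: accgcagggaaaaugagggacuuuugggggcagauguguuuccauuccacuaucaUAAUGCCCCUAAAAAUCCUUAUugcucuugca
MIR365B hairpin: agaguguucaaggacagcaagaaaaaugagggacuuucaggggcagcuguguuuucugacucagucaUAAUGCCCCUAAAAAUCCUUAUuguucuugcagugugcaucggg
The reverse complement of the seed, which a fully matched target would carry, reads GGGCAUU. Transcripts of the acetyltransferase genes were not searched for it, since no transcript sequences were used here.

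Values are expression on the log scale of the deposited table, with 1 value per gene and array, quantile normalized across the arrays. The scale was read as log2, but the sources used here do not state whether it is log2 or variance stabilized, so differences are not converted to folds. The values rank arrays for 1 gene but not genes against each other. The scale has a floor, and 60% of the genes on each array lay at or below 7.43, so that a fall which ends there may be understated. In RNA from whole cultures, fewer cells with a transcript and less of it per cell cannot be told apart. Of the markers, ERBB2 was at 10.86 ± 0.065 (SD, n = 2) in control SKOV3 and 7.61 ± 0.073 (SD, n = 3) in control MDA-MB-231, ESR1 was at 8.83 and 7.28, KRT8 at 10.20 and 9.20, and CD44 at 10.47 and 11.26, while PGR and CDH1 were at 7.43 or less in both. VIM was at 13.70 and 13.79. KRT18, listed as high in SKOV3, was not higher there (7.90 against 8.01), and PTPRC, CD3E and PECAM1, which mark other cell types, were at or below 7.50 on every array and ALB at or below 7.54. The rows of the miRNA's own genes, MIR365-1 and MIR365-2, measure primary transcripts, not the mimic, and do not check the treatment. MIR365-1 differed by 0.39 in MDA-MB-231 (limma adjusted p = 0.0679) and by 0.31 in SKOV3 (limma adjusted p = 0.251). MIR365-2 differed by -0.013 and -0.003.

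Transcripts of EP300, CREBBP, MYST3, EP400 and TRRAP fell with miR-365a-3p in both cell lines, whereas KAT5, the catalytic subunit of the TIP60 complex, rose on the quantile-normalized values but was not called on the deposited ones. In MDA-MB-231, 6 of the 10 genes fell past the adjusted threshold of limma (EP300, CREBBP, KAT2B, MYST3, EP400 and TRRAP), where 11.7% of all genes fell, and 2 rose (KAT5 and ING3), where 14.4% of all genes rose. In SKOV3, 5 fell (EP300, CREBBP, MYST3, EP400 and TRRAP) against 7.11% of all genes, and KAT5 rose against 7.25% of all genes. Both cell lines shared 5 falls against 5.39% of all genes and 1 rise against 5.76% of all genes. Among the 15662 genes with a mean above the median, the shares that fell were 22.1% in MDA-MB-231, 13.5% in SKOV3 and 10.6% in both. Of the same 15662 genes, 4372 rose in MDA-MB-231, 2244 in SKOV3 and 1802 in both. The rises among the 10 genes therefore cannot be read as particular to them. The median log2 difference of the 10 genes was -0.38 in MDA-MB-231 and -0.45 in SKOV3, and that of all genes was 0.01 in each. For 5 of the 10 genes, the arrays with miR-365a-3p lay under the controls in both cell lines without overlap, which held for 10.3% of all genes. Since the genes were chosen with earlier results of these data known, these shares give no test of the 10 as a set.

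**Figure D1:**
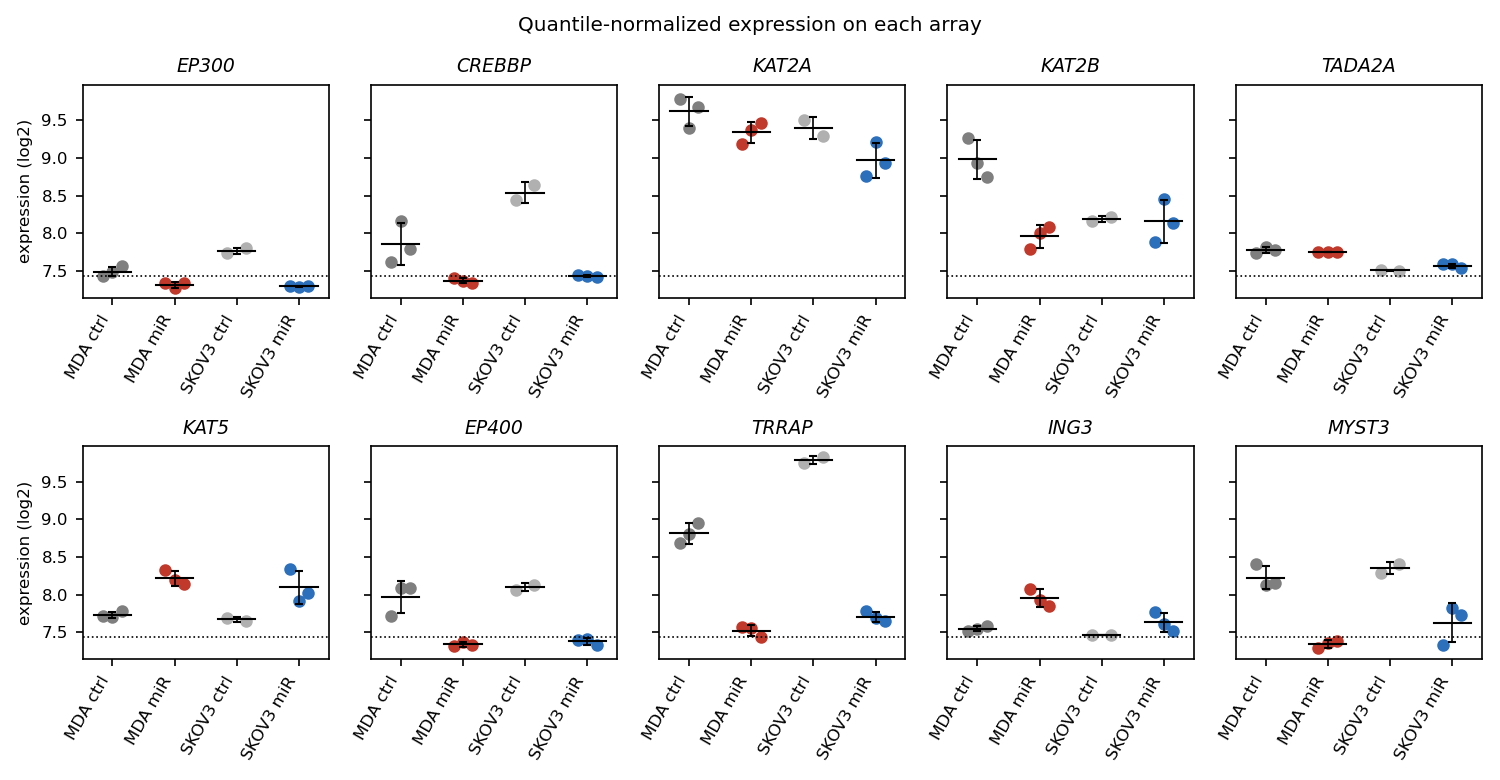
Quantile-normalized log2 expression of the 10 genes (vertical axis) on each array of the 4 groups (horizontal axis). Points are arrays, lines and bars are mean and SD, and the dotted line marks 7.43, the level that 60% of genes do not exceed; TRRAP falls from 8.68 or more in controls to 7.78 or less with miR-365a-3p, and EP400 ends under the dotted line in both cell lines.

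The balance between mRNAs of small and of large proteins moved with the treatment, and EP300, CREBBP, MYST3, EP400 and TRRAP are known to encode large proteins. On each array this balance is the median of 170 genes from families of small proteins (ribosomal, respiratory chain, proteasome and splicing subunits) minus the median of 19 genes from families of large proteins (laminins, myosins, filamins and the like), with lists made by gene symbol after the values were seen. It was 0.91 to 1.59 in MDA-MB-231 controls and 3.80 to 3.99 with miR-365a-3p, and 1.63 to 1.68 in SKOV3 controls and 3.07 to 3.73 with miR-365a-3p, without overlap. Of the 19 large-protein genes, 18 fell in MDA-MB-231 and 15 in SKOV3, with median log2 differences of -2.04 and -1.41. Of the 170 small-protein genes, 91 rose and 7 fell in MDA-MB-231, and 43 rose and 4 fell in SKOV3. With the balance as a covariate in limma, a fit added after the values were seen, 0 of the 10 genes were called in MDA-MB-231, where 0% of all genes were called and TRRAP alone had an unadjusted p under 0.05. In SKOV3 TRRAP was called, with a log2 difference of -1.94 (limma adjusted p = 0.0458), where 0.0894% of all genes were called, and EP300 and CREBBP also had an unadjusted p under 0.05. The share of all genes below that unadjusted cutoff is not given here. Those unadjusted results therefore cannot be read as particular to the 10 genes. The differences in this fit had wider standard errors, so their size against the reported fit is not interpreted. That of CREBBP was -0.78 ± 0.53 in MDA-MB-231 and -1.30 ± 0.37 in SKOV3 (SE), against -0.49 and -1.10 in the reported fit. In MDA-MB-231 that of TRRAP was -1.08 ± 0.31, against -1.29, and that of KAT2B was -0.66 ± 0.74, against -1.02. That of EP300 was -0.00356 ± 0.149 in MDA-MB-231 and -0.36 ± 0.106 in SKOV3, against -0.17 and -0.47. EP400 was at -0.28 and -0.48, and MYST3 at -0.18 and -0.25. Since the balance separates the treatments almost as the labels do, this fit had a median standard error over all genes 4.32 times that of the reported fit for MDA-MB-231 and 2.73 times for SKOV3, and a call it loses is not evidence of a smaller change. The changes of the 10 genes and this shift of the arrays cannot be told apart.

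**Figure D2:**
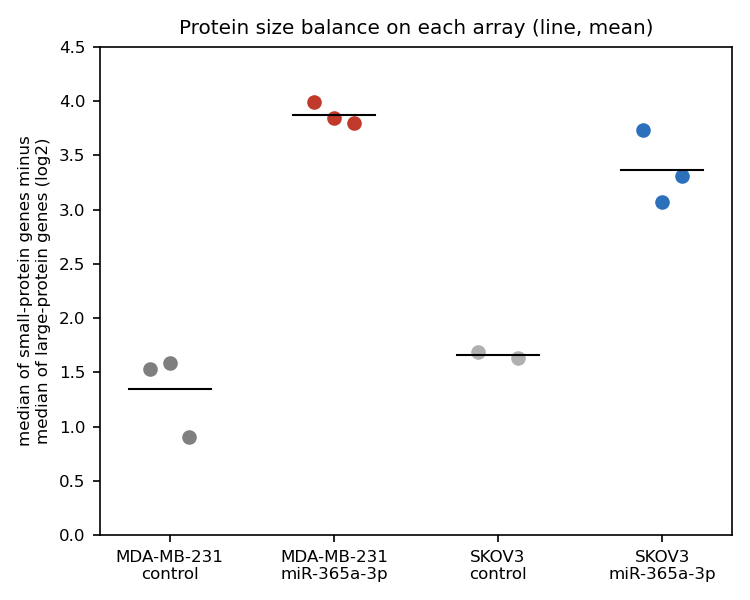
Median of 170 genes of small-protein families minus the median of 19 genes of large-protein families (vertical axis, log2) on each array of the 4 groups (horizontal axis), with the mean of the group as a line. Control arrays lie at 1.68 or less and arrays with miR-365a-3p at 3.07 or more.

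EP300 and CREBBP encode paralogous coactivators that acetylate histones at enhancers and promoters and carry a bromodomain. EP300 was at 7.43, 7.48 and 7.56 in MDA-MB-231 controls and at 7.34, 7.27 and 7.34 with miR-365a-3p. In SKOV3 it was at 7.74 and 7.80 in controls and at 7.30, 7.28 and 7.30 with miR-365a-3p. The groups did not overlap in either line, but all 6 arrays with miR-365a-3p and 1 MDA-MB-231 control lay at or below the floor. EP300 fell by 0.17 ± 0.035 on the log2 scale in MDA-MB-231 (SE, limma adjusted p = 0.00603) and by 0.47 ± 0.039 in SKOV3 (limma adjusted p = 0.000142). CREBBP was at 7.62, 8.16 and 7.79 in MDA-MB-231 controls and at 7.41, 7.36 and 7.35 with miR-365a-3p. The SKOV3 values were 8.44 and 8.64 in controls and 7.45, 7.44 and 7.42 with miR-365a-3p. The spread of CREBBP was wide among the MDA-MB-231 controls and narrow in the arrays with the miRNA, which ended at the floor or next to it. It fell by 0.49 ± 0.118 in MDA-MB-231 (SE, limma adjusted p = 0.0145) and by 1.10 ± 0.131 in SKOV3 (limma adjusted p = 0.000919). The MDA-MB-231 call was lost with cyclic loess normalization (a log2 difference of -0.40, limma adjusted p = 0.0759) and in a fit of this line alone (limma adjusted p = 0.0529), within a range of 0.00171 to 0.0759 over 21 alternatives.

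TRRAP, EP400, KAT5 and ING3 belong to the TIP60 complex, and they did not move together. TRRAP is a very large scaffold without kinase activity that brings both the SAGA and the TIP60 complexes to transcription factors. It was at 8.68, 8.81 and 8.96 in MDA-MB-231 controls and at 7.58, 7.56 and 7.44 with miR-365a-3p. On the SKOV3 arrays it was at 9.75 and 9.83 in controls and at 7.78, 7.69 and 7.65 with miR-365a-3p. None of these arrays was at or below the floor, to which 1 MDA-MB-231 array with the miRNA came close at 7.44, and the gap between the groups exceeded 1 log2 unit in both lines. TRRAP had the largest measured fall of the 10 genes, where those of genes that ended at the floor may be understated. It fell by 1.29 ± 0.070 in MDA-MB-231 (SE, limma adjusted p = 9.74e-06) and fell by 2.08 ± 0.078 in SKOV3 (limma adjusted p = 3.58e-06). EP400, the ATPase of the complex that exchanges histone variants, was at 7.72, 8.09 and 8.10 in MDA-MB-231 controls and at 7.32, 7.37 and 7.34 with miR-365a-3p. The SKOV3 levels were 8.07 and 8.14 in controls and 7.40, 7.41 and 7.33 with miR-365a-3p. All 6 arrays with the miRNA lay at or below the floor. EP400 fell by 0.63 ± 0.089 in MDA-MB-231 (SE, limma adjusted p = 0.000997) and by 0.72 ± 0.099 in SKOV3 (limma adjusted p = 0.00184).

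KAT5 is the acetyltransferase of the TIP60 complex. It was at 7.72, 7.70 and 7.78 in MDA-MB-231 controls and at 8.32, 8.19 and 8.14 with miR-365a-3p. In SKOV3 it was at 7.70 and 7.65 in controls and at 8.34, 7.92 and 8.03 with miR-365a-3p. The arrays with the miRNA lay above the controls in both lines. On the quantile-normalized values KAT5 rose by 0.48 ± 0.097 in MDA-MB-231 (SE, limma adjusted p = 0.00591) and by 0.42 ± 0.109 in SKOV3 (limma adjusted p = 0.0328). The rise depended on the scaling. On the deposited values the differences were 0.15 (limma adjusted p = 0.195) and 0.18 (limma adjusted p = 0.204), and with median centring 0.19 (limma adjusted p = 0.0895) and 0.22 (limma adjusted p = 0.102). Over 21 alternatives the adjusted p from limma ranged from 0.000319 to 0.195 in MDA-MB-231 and from 0.00296 to 0.204 in SKOV3. The SKOV3 call was also lost without SKOV3 control replicate 1 (limma adjusted p = 0.134), without SKOV3 control replicate 2 (limma adjusted p = 0.199), without MDA-MB-231 miR-365a-3p replicate 2 (limma adjusted p = 0.0555) and in a fit of this line alone (limma adjusted p = 0.161). ING3 encodes a reader of methylated histone tails in the same complex. It was at 7.53, 7.55 and 7.58 in MDA-MB-231 controls and at 8.08, 7.93 and 7.85 with miR-365a-3p. The SKOV3 values were 7.47 and 7.47 in controls and 7.77, 7.61 and 7.52 with miR-365a-3p. The groups did not overlap in either line, but ING3 passed the threshold in MDA-MB-231 alone, with a log2 difference of 0.40 ± 0.069 (SE, limma adjusted p = 0.00272), against 0.16 in SKOV3 (limma adjusted p = 0.248). On the deposited values the MDA-MB-231 difference was 0.13 (limma adjusted p = 0.0514), the highest of its 21 alternatives.

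KAT2A and KAT2B encode the alternative catalytic subunits of the SAGA and ATAC complexes, and TADA2A an adaptor of ATAC. KAT2B was at 9.26, 8.93 and 8.75 in MDA-MB-231 controls and at 7.79, 8.002 and 8.08 with miR-365a-3p. On the SKOV3 arrays it was at 8.16 and 8.21 in controls and at 7.88, 8.45 and 8.14 with miR-365a-3p. The groups were apart in MDA-MB-231 and overlapped in SKOV3. KAT2B fell by 1.02 ± 0.164 in MDA-MB-231 (SE, limma adjusted p = 0.0019), and its difference in SKOV3 was -0.03, with a 95% confidence interval of -0.45 to 0.39. A second row under PCAF, an older symbol of KAT2B, was noticed after the values were seen. It had differences of -0.15 in MDA-MB-231 (limma adjusted p = 0.0504) and 0.002 in SKOV3, with levels close to the floor in all groups. KAT2A was at 9.78, 9.40 and 9.67 in MDA-MB-231 controls and at 9.19, 9.36 and 9.47 with miR-365a-3p, and these groups overlapped. The SKOV3 levels were 9.50 and 9.29 in controls and 8.76, 9.21 and 8.93 with miR-365a-3p, which did not overlap. Neither difference passed the threshold of limma, with -0.28 in MDA-MB-231 (adjusted p = 0.207, interval -0.59 to 0.04) and -0.43 in SKOV3 (adjusted p = 0.112, interval -0.78 to -0.08). On the deposited values the MDA-MB-231 difference was -0.52 (limma adjusted p = 0.0489), and without SKOV3 miR-365a-3p replicate 2 the SKOV3 difference was -0.55 (limma adjusted p = 0.0371), and it was also called with array weights (-0.43, limma adjusted p = 0.0189). TADA2A was at 7.74, 7.82 and 7.78 in MDA-MB-231 controls and at 7.75 on each array with miR-365a-3p. In SKOV3 it was at 7.52 and 7.50 in controls and at 7.59, 7.59 and 7.54 with miR-365a-3p. Its differences were the smallest of the 10 in MDA-MB-231, at -0.03 (limma adjusted p = 0.464), and 0.06 in SKOV3 (limma adjusted p = 0.163). On the deposited values TADA2A fell by 0.30 in MDA-MB-231 (limma adjusted p = 0.000756), and the SKOV3 difference changed sign, at -0.09.

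MYST3 encodes the catalytic subunit of the MOZ complex, which acetylates histones at developmental genes and is rearranged in some leukaemias. It was at 8.40, 8.12 and 8.16 in MDA-MB-231 controls and at 7.29, 7.36 and 7.38 with miR-365a-3p. The SKOV3 values were 8.29 and 8.41 in controls and 7.33, 7.83 and 7.73 with miR-365a-3p. The groups were apart in both lines, with all 3 MDA-MB-231 arrays of the miRNA and 1 SKOV3 array at or below the floor. MYST3 fell by 0.88 ± 0.124 in MDA-MB-231 (SE, limma adjusted p = 0.000992) and by 0.72 ± 0.139 in SKOV3 (limma adjusted p = 0.00923). The SKOV3 call was lost without SKOV3 control replicate 2 (a log2 difference of -0.66, limma adjusted p = 0.0922) and in a fit of this line alone (limma adjusted p = 0.0773), within a range of 0.000659 to 0.0922 over 21 alternatives.

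**Figure D3:**
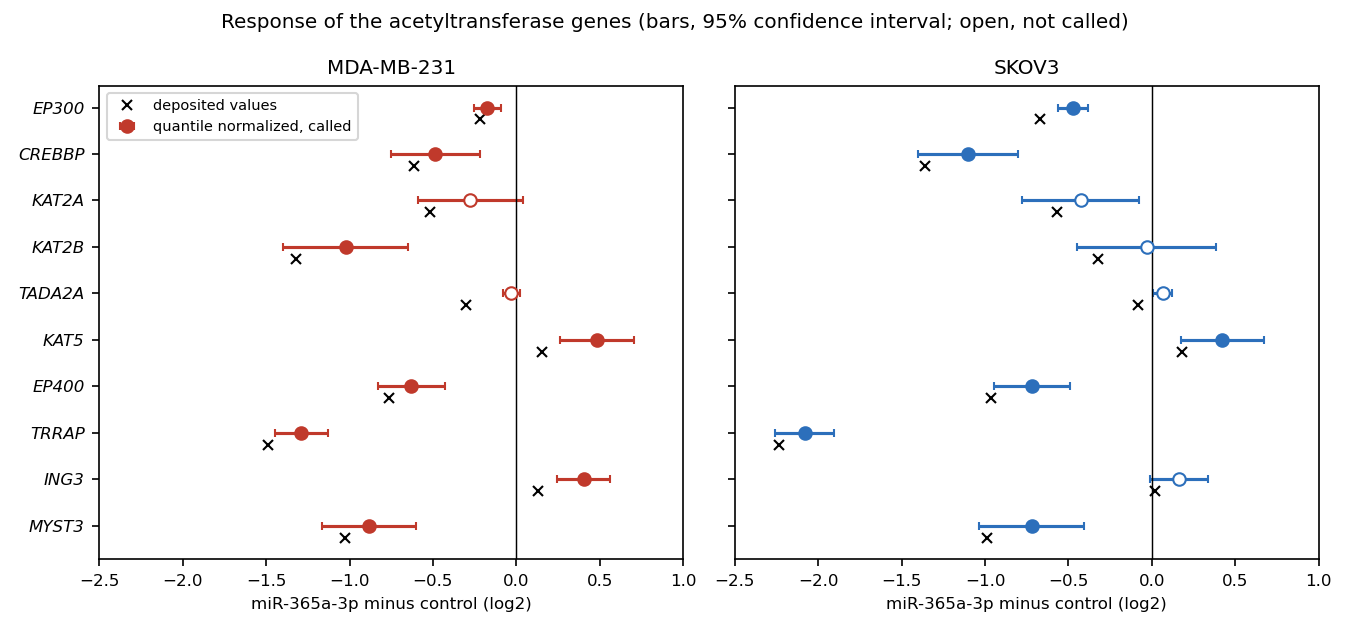
Log2 difference between miR-365a-3p and control arrays (horizontal axis) for the 10 genes (vertical axis) in each cell line, with the 95% confidence interval of limma; filled circles passed the adjusted threshold, open circles did not, and crosses are the same differences on the deposited values. The crosses lie to the left of the circles, and for KAT5 in MDA-MB-231 the difference is 0.48 normalized and 0.15 as deposited.

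The scaling of the arrays changed the split of directions. On the deposited values 8 of the 10 genes fell and 0 rose in MDA-MB-231, with limma, and 5 fell and 0 rose in SKOV3, where 17.9% and 14.0% of all genes fell and 7.26% and 3.83% rose. Median centring gave 7 falls and 1 rise in MDA-MB-231, where 15.6% of all genes fell and 10.8% rose, and 5 falls and 0 rises in SKOV3, where 11.6% fell and 5.52% rose. Cyclic loess gave 5 falls and 2 rises in MDA-MB-231, where 11.9% of all genes fell and 12.4% rose, and 5 falls and 1 rise in SKOV3, where 8.92% fell and 6.30% rose. The falls of TRRAP and EP400 in both cell lines, of KAT2B and MYST3 in MDA-MB-231 and of CREBBP in SKOV3 were called under all 21 alternatives, but of these TRRAP in SKOV3 alone was called with the protein size balance as a covariate. The 21 alternatives are not separate checks. Some leave out an array of the other line, which cannot change the difference itself, and the stricter thresholds use the same fit. EP300 was called in 20 of the 21 in each line and missed a minimum change of 0.5.

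An exact permutation test on the mean of both within-line differences, two-sided with the treatment permuted within cell lines over 200 arrangements, does not use the linear model. This exact permutation test gave p = 0.005, the smallest value it can give, for EP300, CREBBP, MYST3, EP400 and TRRAP. These are the genes whose arrays with miR-365a-3p lay under the controls in both lines without overlap, as for 10.3% of all genes. That separation largely sets this p, which adds no separate support. The exact permutation p was 0.01 for KAT5 and ING3, 0.025 for KAT2A, 0.04 for KAT2B and 0.455 for TADA2A. Of all genes, 33.8% had an exact permutation p under 0.05 in this test, unadjusted, as did 9 of the 10. Within 1 cell line an exact test cannot give a p below 0.1.

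**Figure D4:**
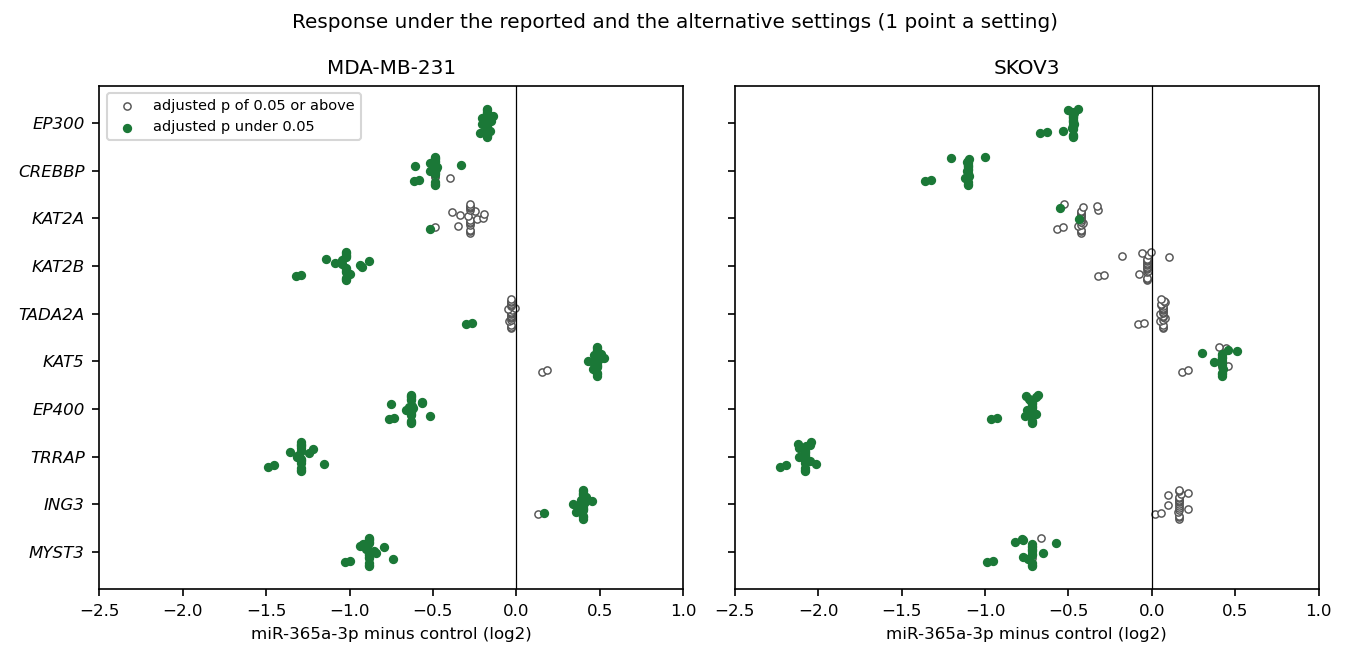
Log2 difference between miR-365a-3p and control arrays (horizontal axis) for the 10 genes (vertical axis) under the reported setting and 21 alternatives, 1 point each; filled points have an adjusted p under 0.05 in limma. TRRAP keeps to values between -1.49 and -1.15 in MDA-MB-231, and KAT5 is filled or open depending on the setting.

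The response differed between the cell lines for 2 of the 10 genes, EP300 and TRRAP, against 2.54% of all genes. The fall of TRRAP was larger in SKOV3 by 0.79 ± 0.105 on the log2 scale (SE, limma adjusted p = 0.00609), and that of EP300 by 0.30 (limma adjusted p = 0.0228). Both genes started from a higher level in SKOV3 controls and ended close together. TRRAP means were 8.81 and 9.79 in MDA-MB-231 and SKOV3 controls, and 7.53 and 7.71 with miR-365a-3p. EP300 means were 7.49 and 7.77 in controls, and 7.32 and 7.30 with miR-365a-3p, which is under the floor in both lines. The EP300 difference was lost without any 1 of 7 of the 11 arrays (adjusted p up to 0.135 from limma, without SKOV3 control replicate 2), while that of TRRAP was kept without each array. With the replicate number as a block, neither was called (limma adjusted p = 0.155 for TRRAP and 0.177 for EP300). For KAT2B the difference between the lines was 0.99 (interval 0.43 to 1.55) and did not pass the threshold (limma adjusted p = 0.09), although it did without SKOV3 miR-365a-3p replicate 1 (limma adjusted p = 0.0378), with array weights (limma adjusted p = 0.0206) and with an intensity trend and robust fit (limma adjusted p = 0.0249). That of CREBBP was -0.62 (interval -1.02 to -0.21, limma adjusted p = 0.144), and without MDA-MB-231 control replicate 2 it was -0.77 (limma adjusted p = 0.00833), and with the intensity trend and robust fit the adjusted p of limma was 0.041. The other 6 genes had adjusted p from 0.283 to 0.936 for this difference in limma.

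On the control arrays, the lines themselves differed in 5 of the 10 genes. Control SKOV3 had more TRRAP, by 0.97 on the log2 scale (limma adjusted p = 5.32e-05), more CREBBP, by 0.68 (limma adjusted p = 0.00698), and more EP300, by 0.28 (limma adjusted p = 0.00137), in a comparison where 8.34% of all genes were higher in SKOV3. Control SKOV3 had less KAT2B, with a difference of -0.79 (limma adjusted p = 0.0178), and less TADA2A, with -0.27 (limma adjusted p = 0.00014), where 7.76% of all genes were lower. The difference in KAT2B was lost without SKOV3 control replicate 1 (limma adjusted p = 0.117) or replicate 2 (limma adjusted p = 0.0942), and that in CREBBP without replicate 2 (limma adjusted p = 0.0796). KAT2A, KAT5, MYST3, EP400 and ING3 had adjusted p from 0.495 to 0.859 in limma.

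Of 66 further genes of these complexes and their relatives, 19 fell and 20 rose in MDA-MB-231 in limma, and 14 fell and 10 rose in SKOV3, with 12 falls (18.2%) and 9 rises (13.6%) shared by both lines, beside 5.39% and 5.76% of all genes. These are 28.8% and 30.3% of the 66 in MDA-MB-231, beside 11.7% and 14.4% of all genes, and 21.2% and 15.2% in SKOV3, beside 7.11% and 7.25%. Genes with a mean above the median are a closer background. Of these 15662 genes, 22.1% fell and 4372 rose in MDA-MB-231, and 13.5% fell and 2244 rose in SKOV3. In both lines 10.6% of them fell and 1802 rose. The excess of partners over all genes therefore cannot be read as particular to the partners. Their median log2 differences were 0.01 and 0.002. Partners of the MOZ, MORF and HBO1 complexes fell in 7 of 10 cases and rose in 1 in MDA-MB-231, and fell in 4 and rose in 0 in SKOV3. Partners in SAGA and ATAC had 9 rises and 3 falls of 21 in MDA-MB-231, and 4 rises and 2 falls in SKOV3. Those of the TIP60 complex had 5 rises and 1 fall of 14 in MDA-MB-231, and 4 rises and 1 fall in SKOV3. Partners of MOF had 5 falls and 4 rises of 11 in MDA-MB-231 and 4 falls and 1 rise in SKOV3, and the 10 other acetyltransferases and coactivators had 3 falls and 1 rise in each line. On the deposited values 26 partners fell and 10 rose in MDA-MB-231, and 22 fell and 9 rose in SKOV3. These are 39.4% and 15.2% in MDA-MB-231, beside 17.9% and 7.26% of all genes on that scaling, and 33.3% and 13.6% in SKOV3, beside 14.0% and 3.83%. Without SKOV3 control replicate 1, 12 partners were called in SKOV3, and without SKOV3 control replicate 2, 7 were. With the protein size balance as a covariate 0 were called by limma in either line. At an unadjusted p under 0.05 there were 3 falls and 5 rises in MDA-MB-231, and 3 falls and 3 rises in SKOV3. Shares of all genes at this unadjusted threshold, and without either SKOV3 control, are not given here. Those partner counts therefore cannot be read as particular to the partners.

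The largest shared falls among these partners were those of HCFC1, CLOCK, KIAA1310, BRPF3 and KIAA1267. HCFC1, host cell factor of the NSL complex, was at 9.05, 9.76 and 10.12 in MDA-MB-231 controls and at 7.35, 7.51 and 7.42 with miR-365a-3p, and at 10.77 and 10.69 in SKOV3 controls and 7.47, 7.56 and 7.44 with miR-365a-3p. On 2 of the 3 MDA-MB-231 arrays with the miRNA it was below the floor. Its differences were -2.22 and -3.24 (adjusted p = 0.000164 and 8.86e-05 from limma). CLOCK, a circadian transcription factor with reported acetyltransferase activity, had differences of -1.31 and -1.91. KIAA1310 and KIAA1267, now KANSL3 and KANSL1 of the NSL complex, had differences of -1.68 and -1.51, and of -0.82 and -1.01. BRPF3, a scaffold of HBO1 complexes, had differences of -1.69 and -0.65, and here the fall was larger in MDA-MB-231 (limma adjusted p = 0.000344 for the difference between lines). The largest rises were in MBIP of ATAC (1.36 and 0.82), HAT1, which acetylates newly made histones (0.95 and 1.23), TAF9 of SAGA and TFIID (1.04 and 1.01), YEATS4, a reader in the TIP60 complex (0.85 and 1.12), and ENY2 of the SAGA deubiquitinase module (0.70 and 0.83). All of these 10 genes passed the threshold of limma in both lines. The SKOV3 calls of MBIP, HAT1, TAF9, YEATS4 and ENY2 were each lost without SKOV3 control replicate 1 and without replicate 2, with adjusted p from 0.054 to 0.171 in limma. KIAA1310 lost its SKOV3 call without control replicate 2 (limma adjusted p = 0.0552). YEATS4 lost its MDA-MB-231 call without miR-365a-3p replicate 1, control replicate 1 or control replicate 3 of that line (limma adjusted p of 0.0578 to 0.0642). ENY2 lost it without miR-365a-3p replicate 1, miR-365a-3p replicate 2 or control replicate 3 (limma adjusted p of 0.0509 to 0.0831). Its SKOV3 call was also lost without MDA-MB-231 miR-365a-3p replicate 2, SKOV3 miR-365a-3p replicate 1 or SKOV3 miR-365a-3p replicate 3 (limma adjusted p of 0.0516 to 0.0817). MBIP was not called in SKOV3 on the deposited values (0.59, limma adjusted p = 0.0765), nor YEATS4 in MDA-MB-231 (0.64, limma adjusted p = 0.0703).

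**Figure D5:**
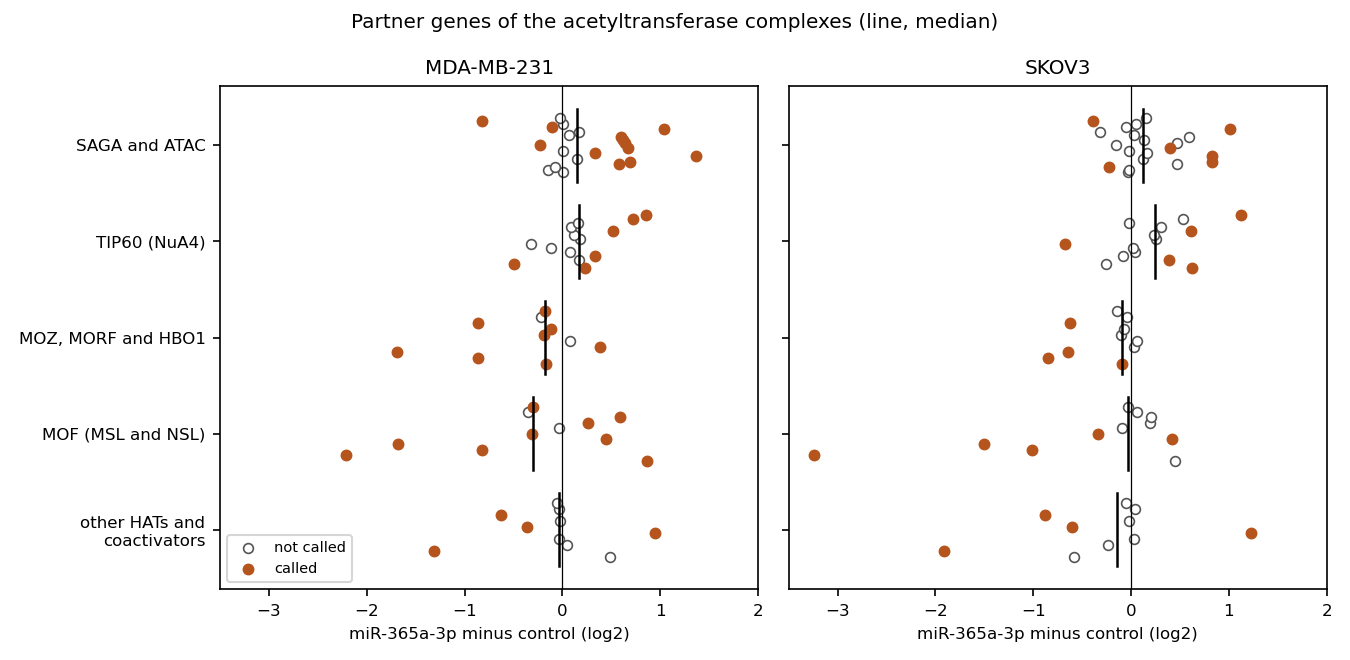
Log2 difference between miR-365a-3p and control arrays (horizontal axis) for 66 partner genes grouped by complex (vertical axis) in each cell line; filled points passed the adjusted threshold of limma and lines are medians of the complex. SAGA and ATAC partners have a median of 0.15 in MDA-MB-231 and MOF partners one of -0.30, with HCFC1 as the lowest point in both panels.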

How the data were processed

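RNA of 4 groups (cell line by treatment, as labelled) was measured on 11 BeadChips. The authors amplified it to biotin-labelled cRNA, quantile normalized the data with lumi and deposited values on a log scale, read here as log2, with 1 row per gene symbol. The sources used here do not state whether the transformation was log2 or variance stabilizing, how probes were combined, or whether background was subtracted. Detection values were not used here. The deposited columns did not share a distribution (75th percentiles of 7.56 to 8.04), so they were quantile normalized again with limma 3.58.1 in R 4.3.3. A model with 4 group means was fitted to all 31325 genes, with eBayes and Benjamini-Hochberg adjustment (threshold 0.05). The members, partner lists and tests were chosen with earlier results of these data known. All 10 members are named, with the 5 largest falls and 5 largest rises by the mean over both lines among partners called in both with 1 sign, and any partner called for the difference between lines. Alternatives were other scalings (deposited, median centring, cyclic loess), single lines, a replicate block, an expression filter, an intensity trend, array weights, stricter thresholds and each array left out. A covariate for the protein size balance (genes with a mean above 8) was added after seeing the data. In simulated data with 200 genes changed by 1, the fit recovered 94% in MDA-MB-231 with 18 false calls, and 86% for the difference between lines with 15 false calls. The simulation used independent noise without a floor or a shift of the balance, and no smaller changes. It does not give the power for these data. Replicates had no identical values. Of the members, 9 carried a current symbol and 1 an older one (GRCh38.p14 gene table, names only). A seed site search and protein lengths, which were planned, were not run.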

Additional observations from a re-analysis of the deposited data

Results flagged for a closer look

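The results of 4 genes differed between the cell lines by the interaction test of limma. These were 2 of the 10 genes and 2 of the 66 partners (3.03%), where 2.54% of all genes were called. The partner share is near that of all genes and is not read as particular to them. The response of TRRAP in SKOV3 cells minus that in MDA-MB-231 cells was -0.79 on the log2 scale, and that of EP300 was -0.30. TRRAP was called in 19 of 20 alternatives and EP300 in 10 of 20. With the miRNA, EP300 ended under the floor in both lines. Among the partner genes, the response difference of BRPF3 was 1.04. That of DMAP1, a TIP60 complex subunit, was -0.42 (adjusted p = 0.0343 from limma), from a rise of 0.34 in MDA-MB-231 cells and a difference of -0.08 in SKOV3 cells. The DMAP1 difference in MDA-MB-231 was -0.00601 on the deposited values (limma adjusted p = 0.979) and 0.0263 with median centring (limma adjusted p = 0.859).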

How the results depend on the processing

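Among values of single genes recomputed under the other settings, the protein size covariate left out, 1169 kept their direction and side of the threshold, 82 lost and 10 gained a call, and 11 changed sign. With that covariate 20 kept both, 26 lost a call and 16 changed sign. Part of the agreement was fixed in advance, since leaving out an array of the other line cannot change a difference within a line. Most counts that follow are given without the share of all genes called at the same setting. A change in such a count cannot be read as particular to these genes. Members called in MDA-MB-231 (8) were 4 with a minimum change of 0.5 and 8 without each array in turn. In SKOV3 (6) they were 4 to 7 without each array, and the falls (5) 4 to 6. For the difference between lines (2) the count was 1 at an adjusted p under 0.01, 1 with the minimum change, 4 with trend and robust settings, and 1 to 3 without each array. For the controls (5) it was 3 with the minimum change and 3 to 5 without each array. Partners called in MDA-MB-231 (39) were 25 at an adjusted p under 0.01, 23 with the minimum change and 27 to 39 without each array. In SKOV3 (24) they were 13, 13 in a fit of this line alone, 39 with array weights and 7 to 31 without each array. The exact permutation test (unadjusted p under 0.05, as for 33.8% of all genes) called 9 members, and 7 to 9 without each array. Arrays of the same replicate number had correlations of -0.124 to 0.197, and those of other numbers -0.429 to 0.315. As these are deviations from means of 2 or 3 arrays, they cannot settle whether the numbers pair the arrays. With the number as a replicate block, 0 members were called for the difference by limma (TRRAP -0.76, adjusted p = 0.155, and EP300 -0.30, adjusted p = 0.177) and 3 for the controls, CREBBP lost its MDA-MB-231 call (adjusted p = 0.0554) and KAT5 its SKOV3 call (0.0782). Sign changes on the deposited values and with median centring were, for KAT5, 0.0275 and 0.0327 in the difference between lines and 0.0201 and 0.00636 between the controls, and for TADA2A in SKOV3 -0.0850 and -0.0475. DMAP1 in MDA-MB-231 was -0.00601 on the deposited values, and the MYST3 difference -0.00392 with cyclic loess. Without each array, KAT2B in SKOV3 ranged from -0.18 to 0.10, the KAT5 difference from -0.184 to 0.0265 and the EP400 difference from -0.152 to 0.0336. With the protein size balance as a covariate, members called were 0 in MDA-MB-231, 1 in SKOV3 and 1 for the difference, members that fell were 0 and 1, and partners called 0 and 0. Signs changed in this fit for KAT2A (0.75 and 0.26), KAT5 (-0.15 and -0.00667), YEATS4 (-0.97 and -0.11) and ENY2 (-1.39 and -0.58) in MDA-MB-231 and SKOV3, for CLOCK (0.20), KIAA1310 (0.20) and HAT1 (-0.66) in MDA-MB-231, for KAT2B (0.21), ING3 (-0.0445) and MBIP (-0.0856) in SKOV3, and in the difference for KAT5 (0.15) and MYST3 (-0.0669). The causes were not tested. Signal close to the floor limits EP300, EP400 and CREBBP in both lines, MYST3 in MDA-MB-231 and on 1 SKOV3 array, and HCFC1 in MDA-MB-231. Also close to it were the SKOV3 control means of ING3 (7.47) and TADA2A (7.51) and the SKOV3 mean of HCFC1 with miR-365a-3p (7.49). In MDA-MB-231 with miR-365a-3p the means of TRRAP (7.53), KIAA1267 (7.55) and BRPF3 (7.56) were close to it too, so their falls may be understated.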
